A study of Mus musculus with 4 samples.

Results

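Alpha and beta tubulins are the paired subunits of microtubules, the hollow filaments that carry cargo, shape the cell and build the mitotic spindle. Each subunit is encoded by several paralogous genes, the tubulin isotypes, whose proteins share a nearly identical folded body and, where they differ, do so mainly in an acidic tail that faces outwards from the microtubule. Cells adjust tubulin synthesis to the pool of free dimers: when soluble tubulin is in excess, ribosomes that have just made the first residues of a tubulin chain are recognised and the tubulin mRNA is degraded, a feedback known as tubulin autoregulation. Tuba1b, Tuba1c, Tubb4b and Tubb5 are broadly expressed in dividing cells, Tuba1a and Tubb2b are abundant in developing brain, and Tubb3 is the class III isotype used as a marker of neurons and often found in tumour cells.

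The 10 genes described here are the alpha tubulins Tuba1a, Tuba1b, Tuba1c and Tuba4a and the beta tubulins Tubb2a, Tubb2b, Tubb3, Tubb4b, Tubb5 and Tubb6, out of 26322 genes listed. They were chosen by symbol as tubulins that are well measured in these libraries, and differences of some of them between the groups (Tuba1a and Tubb3 among them) were known when the family was chosen. Their levels are therefore a description, and their group differences are not independent evidence. The label held for 9 of the 10 genes, since Tubb2b had 0 reads in all 4 libraries.

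The libraries were made from MC38 cells, a mouse colon carcinoma line. MC38 cells were electroporated with Cas9 protein loaded either with a non-targeting guide (sgNT, the group labelled WT) or with a guide against Cbfb (sgCbfb, the group labelled CbfbKO), and RNA was collected at least 1 week later. Both groups thus went through electroporation with Cas9, and whether either was cloned from single cells is not given in the sources used here. There were 2 libraries per group. CBFβ is the partner subunit through which the RUNX transcription factors bind DNA stably, and the comparison asks which transcripts differ when it is depleted.

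The sgNT libraries held 3396192 and 3335116 reads on genes and the sgCbfb libraries 3907936 and 3189035, so that 1 read was worth 0.256 to 0.314 CPM (counts scaled to a common library total). Because the protocol reads each mRNA once, at its 3′ end, long and short transcripts give reads alike, and CPM can be set side by side between genes without division by length. Cbfb itself had 295 and 285 reads in the sgNT libraries and 125 and 125 in the sgCbfb libraries, which is 41.5% of the sgNT level (log2 fold change −1.27, SE 0.12, limma adjusted p = 1.76e-07). Of the markers of colon epithelium, Krt18, Vil1 and Cldn7 had 0 reads in every library and Epcam, Cdh1, Krt8, Krt19, Krt20 and Cdx2 had at most 4, so the labelled tissue of origin is not visible in its defining markers, whereas Vim, an intermediate filament gene of mesenchymal cells, had 6737 to 8669 reads. Other fibroblast markers were low or absent, with 0 reads of Lum and Thy1, 0 to 2 of Col1a2, 8 to 13 of Col1a1 and 4 to 16 of Pdgfrb, and with 91 to 169 of Pdgfra and 95 to 116 of Dcn. The labels do not say whether libraries of a group came from separate cultures, so p-values measure only the spread between these libraries, which may be technical. For a single value, exact permutation of 2 and 2 libraries has 0.33 as its smallest two-sided p.

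The members share a compact gene structure, with 4 exons in the annotated transcript of each. In the GENCODE M21 annotation of the GRCm38 build, Tuba1a (chr15:98949837-98953703) and Tuba1b (chr15:98931425-98934565) lie on the minus strand of chromosome 15 with 15271 bases between them, and Tuba1c (chr15:99029891-99038110) lies on the plus strand 76187 bases from Tuba1a. Tuba4a is at chr1:75214228-75219865 on the minus strand. Tubb2a (chr13:34074274-34078007) and Tubb2b (chr13:34126748-34130466) are neighbours on the minus strand of chromosome 13, 48740 bases apart. Tubb3 is at chr8:123411424-123422015 (plus), Tubb4b at chr2:25222160-25224702 (minus) and Tubb5 at chr17:35833921-35838306 (minus). The coding sequences span 1335 to 1356 bases.

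The start of the coding sequence is shown because it encodes the nascent peptide read by autoregulation. Capitals mark the first 12 bases. An alpha and a beta isotype are given, from the GENCODE M21 transcripts.
Tuba1a: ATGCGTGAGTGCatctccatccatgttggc
Tubb5: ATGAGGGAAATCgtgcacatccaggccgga

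All 4 alpha members encoded the residue pattern known for alpha tubulin in these capitals, and all 6 beta members that known for beta tubulin, so by sequence every member carries the region that autoregulation reads.

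The last 60 bases of the coding sequence, stop codon included, encode the acidic tail and are shown because it is here that many isotypes, though not all, part. Capitals mark the last sense codon, which in most alpha tubulins encodes the terminal tyrosine that is removed and added back in the detyrosination cycle. The tails of Tuba1c, which ends in that codon, and of Tuba4a, which does not, are given for the alpha members.
Tuba1c: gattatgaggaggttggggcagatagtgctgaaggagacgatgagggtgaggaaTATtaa
Tuba4a: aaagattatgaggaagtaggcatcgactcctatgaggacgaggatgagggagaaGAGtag

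A codon for the terminal tyrosine was present in 3 of the 4 alpha members, Tuba4a being the exception, and in 0 of the 6 beta members. The beta tails are given for Tubb3 and Tubb5, the beta members called between the groups, and for Tubb4b, which was not called.
Tubb3: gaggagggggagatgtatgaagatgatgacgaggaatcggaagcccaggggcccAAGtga
Tubb4b: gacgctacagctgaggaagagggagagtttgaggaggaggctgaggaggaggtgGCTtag
Tubb5: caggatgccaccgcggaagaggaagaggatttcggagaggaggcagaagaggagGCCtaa

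Over the whole coding sequence, Tuba1a was 98.3% identical to Tuba1b and 97.1% to Tuba1c, and Tuba1b and Tuba1c were 97.9% identical. Tuba4a stood further off, at 84.7% identity with Tuba1a. Among the beta genes Tubb2a and Tubb2b were 96.5% identical, while Tubb3 was 81.5% identical to Tubb5 and 85.9% to Tubb6. Over the last 500 bases of the transcripts the identity of Tuba1a and Tuba1b was 70.7%. The ends from which these reads were made thus differ more between the Tuba1 genes than the coding sequences do.

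Whether a read can be assigned to a single tubulin was examined by cutting each transcript into windows of 75 bases, the read length, and looking for exact copies in transcripts of other genes. In the last 500 bases, 53.8% of the Tuba1a windows, 61.5% of the Tuba1b windows and 66.2% of the Tuba1c windows occurred in another gene on the same strand, mostly one another, besides processed pseudogenes and a long non-coding RNA with a tubulin-like stretch. Within the last 200 bases that same-strand share was 0% for all 3 genes. With either strand counted, 74.4% of the last 500 and 43.7% of the last 200 bases of Tuba1b were shared, the latter with that long non-coding RNA. Tubb2a shared 33.1% of its last 500 bases, mainly with Tubb2b, and Tubb4b shared 19.7%, with processed pseudogenes. With either strand counted, Tubb4b shared 30.8% of the last 500 and 37.3% of the last 200 bases, the latter with Fam166a, which had 0 reads in every library. Tubb3, Tubb5 and Tubb6 shared no window with another gene in the last 500 bases or in the coding sequence.

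The whole Tuba4a end (100% of windows) also lies in Stk16, a kinase gene transcribed from the opposite strand, which had 152 and 147 reads in the sgNT libraries and 197 and 179 in the sgCbfb libraries. The handling of reads that match more than 1 gene and the use of strand are not given in the sources used here, so the split of reads among Tuba1a, Tuba1b and Tuba1c, and the Tuba4a and Tubb4b counts, are uncertain to that extent.

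**Figure D1:**
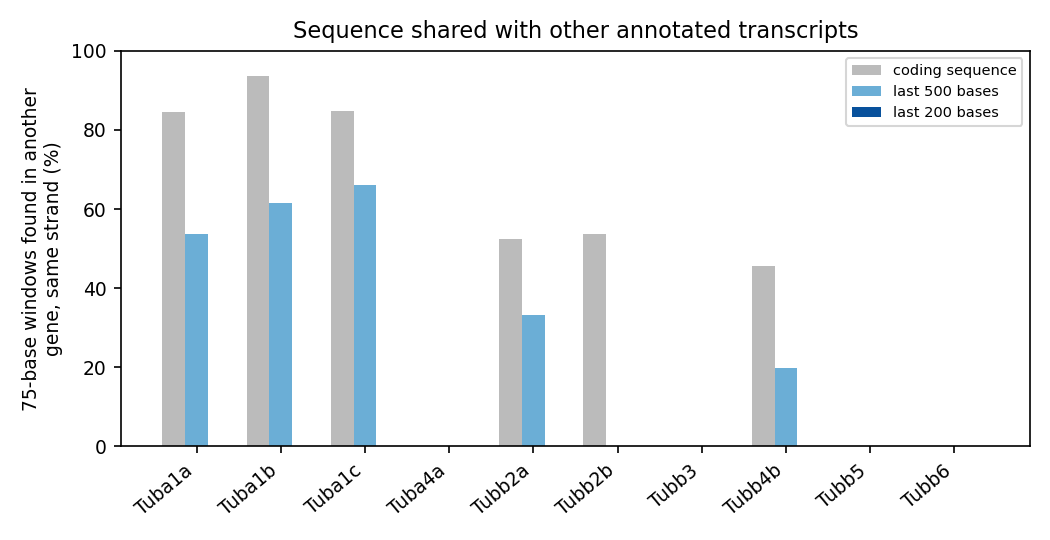
Percentage of 75-base windows (vertical axis) of each tubulin transcript that occur exactly in a transcript of another gene on the same strand, for the coding sequence (grey), the last 500 bases (light blue) and the last 200 bases (dark blue, 0% for every member). The Tuba1 genes share 53.8% to 66.2% of the last 500 bases, and Tubb3, Tubb5 and Tubb6 share none.

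In the sgNT libraries the alpha tubulin Tuba1b led, at 3500 and 3445 CPM, followed by the beta tubulin Tubb5 at 3115 and 3084 CPM and by Tuba1c at 1235 and 1248 CPM. The pool was thus led by an alpha and a beta isotype of similar level. Tubb4b came next, at 395 and 411 CPM, ahead of Tuba1a, at 330 and 328 CPM. Tuba1a, the brain isotype, was thus a minor alpha tubulin in control cells. Tuba4a and Tubb6 came after these and their ranges overlapped, Tuba4a at 217.6 and 216.8 CPM and Tubb6 at 212 and 216.8 CPM. Tubb2a followed at 53.9 and 54.6 CPM and Tubb3 was lowest of those with reads, at 18.2 and 15.3 CPM. The order therefore ran over a wide range, and its only overlap between neighbours with reads was that of Tuba4a and Tubb6.

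In the sgCbfb libraries Tuba1a and Tubb4b changed places, with Tuba1a now above Tubb4b, and the rest of the order was as in the sgNT libraries. Tuba1b and Tubb5 lay closest at the top, with Tuba1b at 3866 and 3804 CPM and Tubb5 at 3637 and 3783 CPM, ranges that did not overlap. Tuba4a, at 229 and 222 CPM, overlapped with Tubb6, at 224 and 201 CPM. Tubb2b, the brain paralogue of Tubb2a, had 0 reads in each of the 4 libraries, which allows a level of up to 0.768 to 0.941 CPM (the worth of 3 reads), and it was not tested.

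**Figure D2:**
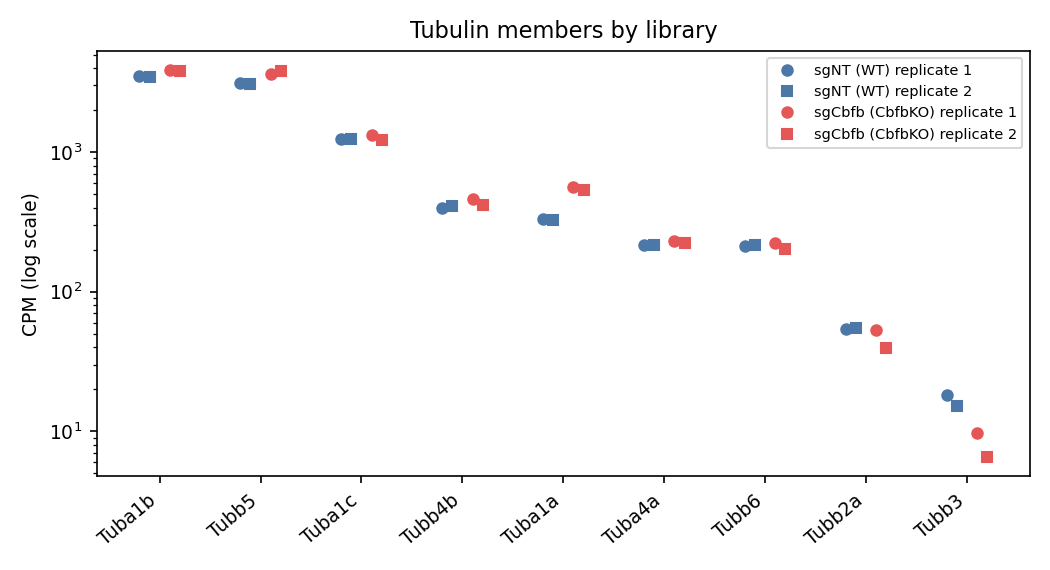
CPM of the 9 tubulins with reads (vertical axis, log scale, deposited log2 CPM taken back to the linear scale) in each sgNT (blue) and sgCbfb (red) library, ordered by their sgNT mean, with replicate 1 as circles and replicate 2 as squares. Tuba1a lies above Tubb4b in both sgCbfb libraries and below it in both sgNT libraries, and Tubb3 is lowest in every library.

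Of the 9 tubulins tested, Tuba1a and Tubb5 were higher and Tubb3 was lower in sgCbfb cells at an adjusted p under 0.05 in limma. That is 2 genes higher and 1 lower, beside 1.57% of all 12207 tested genes called higher and 1.25% called lower (2.83% in either direction). At an unadjusted p under 0.05, 3 members were higher and 1 was lower, beside 14.9% of all tested genes (1820) in either direction. The median log2 fold change of the 9 was 0.05, beside 0.04 over all tested genes. In 7 of the 9 the groups did not overlap, which was so for 44.1% of all tested genes. These are RNA levels of whole cultures, in which fewer cells expressing a gene and less of its RNA per cell cannot be told apart.

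Among the alpha tubulins, Tuba1a had 1120 and 1091 reads (330 and 328 CPM) in the sgNT libraries and 2191 and 1713 reads (561 and 538 CPM) in the sgCbfb libraries. Both sgCbfb libraries lay well above both sgNT libraries, and the replicates of each group lay close together. Tuba1a rose to 167% of the sgNT level (log2 fold change 0.74, 95% interval 0.61 to 0.87, limma adjusted p = 1.78e-08) and stood at rank 11 of all tested genes by p-value. The call was lost when either sgCbfb library was left out (adjusted p = 0.267 without replicate 1 and 0.193 without replicate 2 by limma), settings in which 0 genes were called in the whole table.

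Tuba1b, the most abundant alpha tubulin, had 11884 and 11486 reads in the sgNT libraries and 15107 and 12128 in the sgCbfb libraries. In CPM the sgCbfb libraries were higher without overlap, by a small margin. The log2 fold change was 0.14 (95% interval 0.05 to 0.24) and missed the threshold with limma (adjusted p = 0.112). Voom on the recovered reads put it past the threshold (limma adjusted p = 0.000557), whereas quantile normalization gave 0.039 (limma adjusted p = 0.372). An increase as large as that of Tuba1a lies outside the 95% interval.

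Tuba1c, the third member of the chromosome 15 cluster, had 4193 and 4161 reads in the sgNT libraries and 5174 and 3920 in the sgCbfb libraries. Its second sgCbfb library, at 1230 CPM, lay below both sgNT libraries and its first, at 1325 CPM, above them. The log2 fold change was 0.04 (95% interval −0.07 to 0.15, limma adjusted p = 0.803).

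Tuba4a, the alpha isotype that ends without the tyrosine codon, had 737 and 721 reads in the sgNT libraries and 893 and 706 in the sgCbfb libraries. The groups did not overlap in CPM but the distance was small, with a log2 fold change of 0.05 (95% interval −0.09 to 0.20, limma adjusted p = 0.796). Of the 4 alpha tubulins, then, Tuba1a was the one called, and the log2 ratio of Tuba1a to Tuba1b within a library was 0.60 higher in sgCbfb cells. That ratio was 0.0944 and 0.0951 in the sgNT libraries and 0.145 and 0.141 in the sgCbfb libraries, which did not overlap (two-sided exact permutation p = 0.33, the smallest possible).

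Among the beta tubulins, Tubb5, the main beta isotype of dividing cells, had 10576 and 10284 reads (3115 and 3084 CPM) in the sgNT libraries and 14211 and 12061 reads (3637 and 3783 CPM) in the sgCbfb libraries. The sgCbfb libraries were both above the sgNT libraries. Tubb5 rose to 120% of the sgNT level (log2 fold change 0.26, 95% interval 0.16 to 0.36, limma adjusted p = 0.00151). The call was lost on leaving out any 1 of the 4 libraries, which leaves 1 library in a group, so that the other group alone gives the spread. The log2 fold change then lay between 0.23 and 0.29.

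Tubb3, the class III isotype, had 60 and 49 reads (18.2 and 15.3 CPM) in the sgNT libraries and 36 and 19 reads (9.79 and 6.54 CPM) in the sgCbfb libraries. The groups did not overlap, although the sgCbfb libraries differed from each other more than the sgNT libraries did. Tubb3 fell to 47.9% of the sgNT level (log2 fold change −1.06, 95% interval −1.61 to −0.52, limma adjusted p = 0.0242). With so few reads this is the least precise of the 9 values. The call was also lost on leaving out any 1 of the 4 libraries, which leaves 1 library in a group. The log2 fold change then lay between −1.35 and −0.77.

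Apart from Map2, markers of neurons, the cells for which Tubb3 is a marker, were near 0 in these cultures. Nefl, Nefm, Snap25, Dcx and Syp had 0 reads in every library, and Map2 had 30 and 27 reads in the sgNT and 30 and 39 in the sgCbfb libraries. Of the 12 neuronal markers 3 could be tested and 0 were called by limma (0 at an unadjusted p under 0.05, and 0 by voom). Their summed level was 16.8 to 17.8 CPM in the sgNT and 15.4 to 20.1 CPM in the sgCbfb libraries. Each gene counts for at least 0.579 CPM in these sums, its value at 0 reads, and Map2 alone stood at 8.26 to 12.8 CPM.

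Tubb2a had 181 and 180 reads in the sgNT libraries and 207 and 125 in the sgCbfb libraries, or 53.9 and 54.6 CPM against 53.5 and 39.8 CPM. The first sgCbfb library sat next to the sgNT libraries and the second apart from them. The log2 fold change was −0.23 (95% interval −0.51 to 0.05, limma adjusted p = 0.455).

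Tubb4b, a broadly expressed beta isotype also used in cilia, had 1339 and 1369 reads in the sgNT libraries and 1800 and 1335 in the sgCbfb libraries. In CPM the second sgCbfb library, at 419, barely cleared the higher sgNT library, at 411. The log2 fold change was 0.13 (95% interval −0.01 to 0.26, limma adjusted p = 0.371).

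Tubb6, the class V isotype (chr18:67390717-67402749, plus strand), had 719 and 721 reads in the sgNT libraries and 873 and 639 in the sgCbfb libraries. The sgCbfb libraries lay on either side of the sgNT libraries, and the log2 fold change was −0.02 (95% interval −0.17 to 0.14, limma adjusted p = 0.953).

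**Figure D3:**
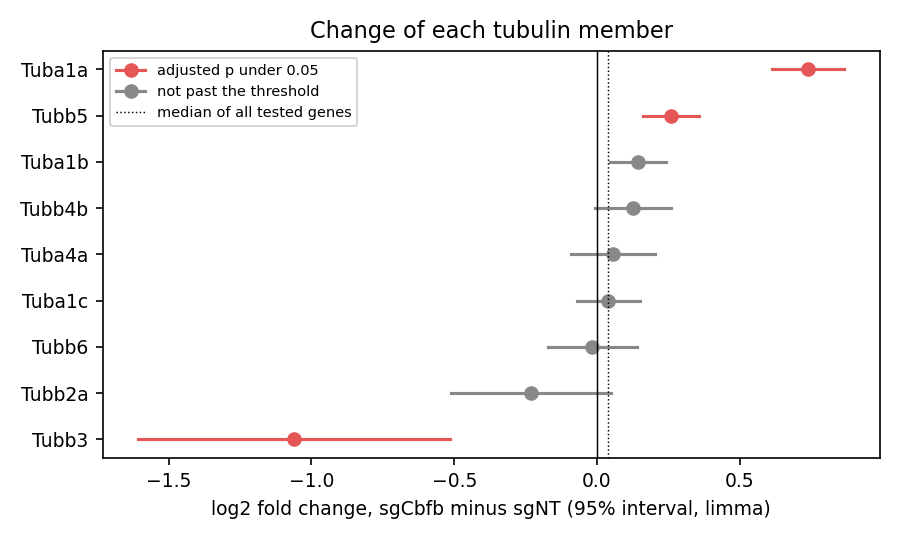
Log2 fold change of each tested tubulin (horizontal axis, sgCbfb minus sgNT) with its 95% interval from limma, in red where the adjusted p was under 0.05, beside 0 (solid line) and the median of all tested genes (dotted line). Tuba1a at 0.74 and Tubb5 at 0.26 lie to the right with intervals clear of 0, and Tubb3 at −1.06 lies to the left with the widest interval.

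Summed over the members, tubulin took 0.907% and 0.901% of the reads in the sgNT libraries and 1.04% and 1.02% in the sgCbfb libraries. The summed level was 9077 and 9020 CPM in the sgNT and 10367 and 10243 CPM in the sgCbfb libraries, a log2 difference of 0.19 without overlap (two-sided exact permutation p = 0.33, the smallest possible). The ribosomal RNA gene Rn45s, which counts towards the library totals, accounted for 13.1% to 13.9% of reads under sgNT and 11.3% to 13.0% under sgCbfb, and the difference was 0.16 with the ribosomal RNA genes left out of the totals. The alpha sum differed by 0.16 and the beta sum by 0.22 on the log2 scale. Alpha tubulin reads per beta tubulin read, given here as the ratio of the summed CPM, came to 1.39 and 1.38 in the sgNT libraries and 1.36 and 1.30 in the sgCbfb libraries.

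Because tubulin is needed for the spindle, markers of mitosis are given beside these sums. Of 12 mitotic genes, all tested, 0 were called by limma and 0 by voom, while at an unadjusted p under 0.05 Cdk1, Plk1, Aurka and Aurkb were higher and Cenpf was lower, beside 14.9% of all tested genes at that p. The median log2 fold change of the 12 was −0.01, and their summed level was 4316 to 4318 CPM in the sgNT and 4227 to 4404 CPM in the sgCbfb libraries, ranges that overlap. Their part in the tubulin differences was not tested.

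As a share of the summed tubulin CPM, Tuba1a made up 3.64% and 3.63% in the sgNT libraries and 5.41% and 5.25% in the sgCbfb libraries. The 95% Wilson intervals, which cover counting error only, reached from 3.42% to 3.85% in sgNT and from 5.01% to 5.64% in sgCbfb, so the groups stood apart by more than counting error. Among alpha tubulins alone, the mean share of Tuba1a was 6.26% in sgNT and 9.33% in sgCbfb cells. Tubb5 made up 34.3% and 34.2% in the sgNT libraries and 35.1% and 36.9% in the sgCbfb libraries. Its intervals overlapped between the groups, from 33.7% to 34.9% in sgNT and from 34.6% to 37.5% in sgCbfb.

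Tuba1b, in turn, made up 38.6% and 38.2% in the sgNT libraries and 37.3% and 37.1% in the sgCbfb libraries, a mean difference of −1.16 percentage points. Tuba1c made up 13.6% and 13.8% in the sgNT and 12.8% and 12.0% in the sgCbfb libraries, a mean difference of −1.33 points. Both alpha isotypes thus had a lower share in the sgCbfb libraries although neither had a lower mean level in CPM. Shares of 1 sum depend on each other, so that a larger share of one isotype lowers the sum of the rest, though not each of them.

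The small beta isotypes held little of the sum. Tubb3 made up 0.201% and 0.169% in the sgNT libraries and 0.0944% and 0.0638% in the sgCbfb libraries, and Tubb2a 0.593% and 0.605% against 0.517% and 0.388%. Tubb4b, Tuba4a and Tubb6 each held between 1.96% and 4.56% in every library. The ratio of Tubb3 to Tubb5 was 0.00586 and 0.00495 in the sgNT and 0.00269 and 0.00173 in the sgCbfb libraries, a log2 difference of −1.32 without overlap. For the shares and ratios of Tuba1a, Tuba1b, Tuba1c, Tubb3 and Tubb5 the two-sided exact permutation p was 0.33, the smallest possible. Tuba1b, Tubb5 and Tuba1c together held 85.2% to 86.5% of the sum in every library, so the composition was led by the same 3 isotypes in both groups.

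**Figure D4:**
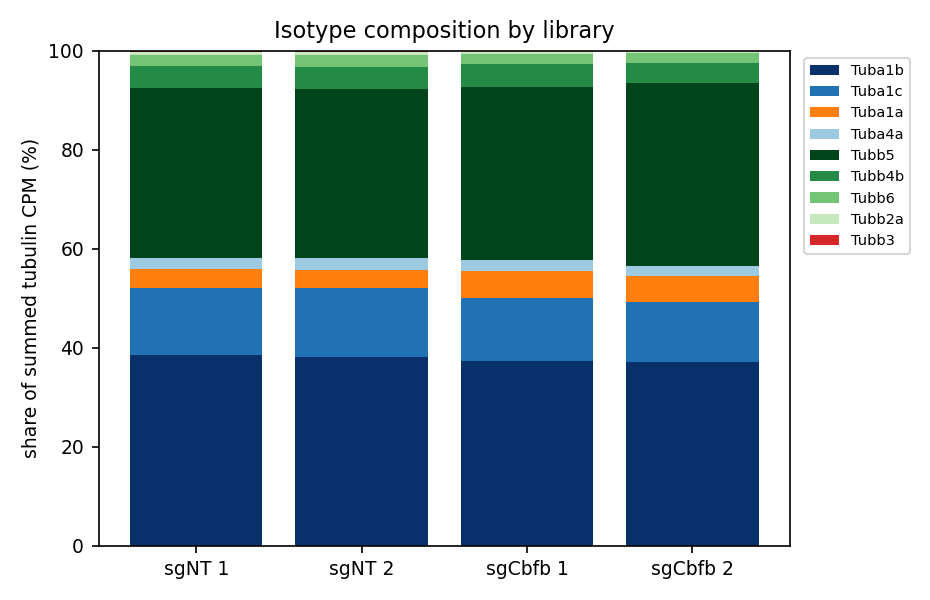
Share of each isotype in the summed tubulin CPM (vertical axis, percent) in the 4 libraries. Alpha isotypes are below (blue and orange) and beta isotypes above (greens, and red for Tubb3). Tubb2a and Tubb3 are bands too thin to make out. The Tuba1a band (orange) is 3.63% to 3.64% thick in the sgNT and 5.25% to 5.41% thick in the sgCbfb libraries.

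Of the 10 other tubulin genes examined, which include the gamma, delta and epsilon tubulins of centrosomes and basal bodies, 3 had enough reads to be tested. Tubg1, the gamma tubulin from which microtubules are nucleated, had 266 and 266 reads in the sgNT and 399 and 262 in the sgCbfb libraries (log2 fold change 0.21, limma adjusted p = 0.365). Tube1 had 17 to 33 reads and Tubd1 7 to 19 in the 4 libraries, with log2 fold changes of 0.06 and 0.15, neither called. Tuba3a, Tuba3b and Tubal3 each had 1 read in 1 of the 4 libraries, and Tubb1, Tubb4a, Tuba8 and Tubg2 had 0 reads in all of them.

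The genes that make, fold, modify and bind tubulin were examined as 7 lists, 110 genes in all, of which 96 were tested. Of these, 2 were called higher and 0 lower by limma (16 higher and 3 lower at an unadjusted p under 0.05; voom also called 2 higher and 0 lower). Their median log2 fold change was 0.08, beside 0.04 over all tested genes. The share called lay near the 2.83% of the background, and the unadjusted counts stand beside 14.9% of all tested genes.

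The list on autoregulation held Ttc5, which binds the nascent tubulin peptide, with the CCR4-NOT complex, which removes poly(A) tails. All 13 genes were tested, with a median of 0.03, and 1 was called higher. This was Cnot6, a deadenylase of CCR4-NOT, with 360 and 321 reads in the sgNT and 511 and 401 in the sgCbfb libraries (log2 fold change 0.34, SE 0.09, limma adjusted p = 0.0352). Its groups did not overlap, but it was called in only 4 of the 14 settings, the one reported included (limma adjusted p = 0.0101 to 0.554), and the call was lost with any 1 library left out, with median centring, with quantile normalization and with the ribosomal RNA genes out of the totals. Cnot1, the scaffold of the complex, had 375 and 354 reads against 409 and 327 (log2 fold change −0.06), and Ttc5 had 16 to 24 reads in the 4 libraries (log2 fold change 0.23), neither of them called.

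Folding of tubulin needs prefoldin and the ring-shaped chaperonin CCT, and then the tubulin cofactors, which join alpha and beta into a dimer. Of 14 chaperonin and prefoldin genes 0 were called by limma or voom (1 was higher at an unadjusted p under 0.05), with a median of 0.07. The most abundant of them, Cct8 and Cct7, had log2 fold changes of −0.05 and −0.09. Of 8 cofactor genes 0 were called by limma or voom, with a median of 0.25, and at an unadjusted p under 0.05 there were 3 higher and 1 lower. Tbca, which holds beta tubulin, had a log2 fold change of 0.12 and Tbcb, which holds alpha tubulin, had 282 and 290 reads in the sgNT and 422 and 324 in the sgCbfb libraries (log2 fold change 0.30, limma adjusted p = 0.0940).

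The enzymes that add or remove tyrosine, glutamate, glycine and acetyl groups on tubulin made a list of 22, of which 17 were tested and 0 were called by limma or voom (4 were higher at an unadjusted p under 0.05; median 0.11). The most abundant were Ttll12, a tyrosine ligase-like protein, and Sirt2, a deacetylase, with log2 fold changes of 0.17 and 0.01. Of the nucleation genes, 10 of 11 were tested and 0 were called by limma or voom (1 was higher at an unadjusted p under 0.05; median 0.12). Besides Tubg1, the most abundant was Cdk5rap2, a centrosomal protein, with a log2 fold change of 0.07.

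Of the microtubule-associated proteins 23 of 27 were tested, with a median of 0.05, and 1 was called higher. This was Dclk1, a doublecortin-like kinase that binds along microtubules, with 296 and 277 reads in the sgNT and 507 and 460 in the sgCbfb libraries. Both sgCbfb libraries were far above both sgNT libraries, and the log2 fold change was 0.68 (SE 0.09, limma adjusted p = 3.25e-05). As with Tuba1a, the call was lost without either sgCbfb library, which leaves 1 library in that group. The log2 fold change was then 0.758 without replicate 1 and 0.605 without replicate 2. Map1b, the most abundant of the list, and Mapre1, which tracks growing microtubule ends, had log2 fold changes of 0.03 and 0.19, neither called.

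Of the stathmins, severing enzymes and depolymerising kinesins, which take microtubules apart, 11 of 15 were tested and 0 were called by limma or voom (2 were higher and 1 lower at an unadjusted p under 0.05; median 0.11). Kif2a, a depolymerising kinesin, had a log2 fold change of −0.04, and Stmn1, the stathmin that holds free dimers, one of 0.12.

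**Figure D5:**
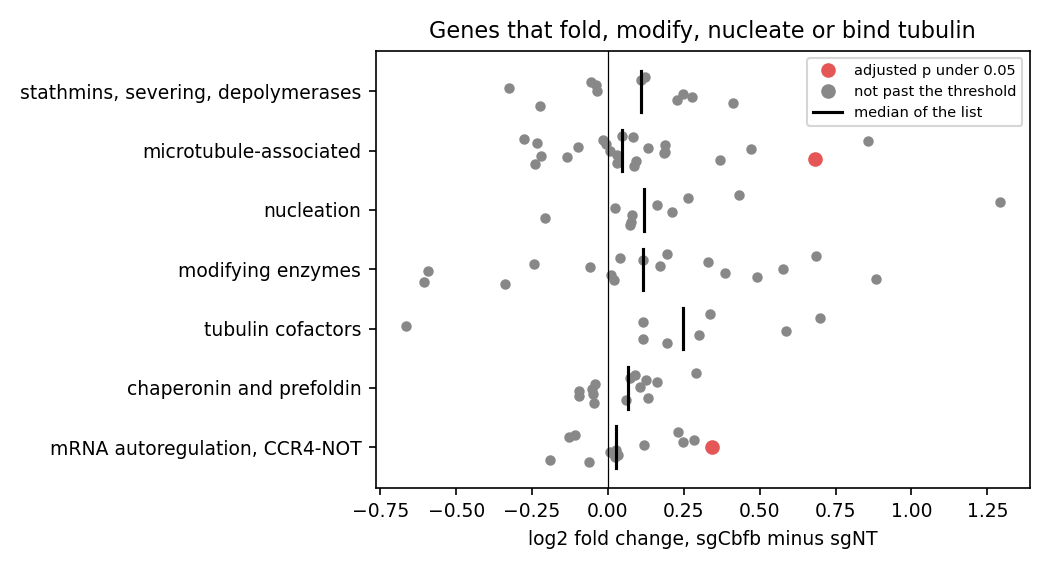
Log2 fold change (horizontal axis, sgCbfb minus sgNT) of each tested gene of the 7 lists, one row per list, in red where the adjusted p was under 0.05, with the median of each list as a vertical bar. The 2 red points are Cnot6 at 0.34 and Dclk1 at 0.68, and the medians lie between 0.03 and 0.25.

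Since CBFβ acts through RUNX factors, the promoters of the members (250 bases before to 50 after the start site, from RefSeq on GRCm38.p6) were searched on both strands for the core sequences TGTGGT and TGCGGT, which cannot match at the same place. A promoter was at hand for 8 of the 10 members, and 1 of the 8, that of Tuba4a, held a match, to TGCGGT. Of 32851 promoters of the same length, 22.4% held either sequence. A match is a run of letters and not a binding site, and no match says only that these letters are not in that window.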

How the data were processed

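3′ mRNA-seq libraries (QuantSeq) of MC38 cells, 2 sgNT and 2 sgCbfb, were grouped by their labels. Per the series' design text, 1 further replicate of each group was left aside for poor RNA. Trimming, alignment to GRCm38/mm10 and counting per gene were done by the authors (cutadapt 1.9, HISAT2 2.1.0 and featureCounts 2.0.1 in the submitters' processing notes). The annotation release, the use of strand and the treatment of reads that match more than 1 gene are not given in the sources used here. The values deposited by the authors are log2 CPM, with an implied prior count of 2, on each library's own total, so that a gene with 0 reads stands at −0.79. CPM in the text are these values taken back to the linear scale. Since they step by whole reads, reads were recovered, and at least 99.99% of the values in each library came out within 0.1 of a whole number.

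limma 3.58.1 (R 4.3.3; lmFit, eBayes with a mean-variance trend, two-sided, Benjamini-Hochberg over 12207 genes, threshold 0.05) was run on the deposited values; a gene entered when 2 or more libraries reached a log2 CPM of 0. The study used voom, which needs counts and was run here as an alternative on the recovered reads. On simulated libraries with 196 genes changed by 1 on the log2 scale among 12198 tested, 65.8% of the changed genes were called. The simulation gave all genes the same preset variability beyond counting error, not estimated from these libraries. That share is therefore a check of the procedure and not the sensitivity of this comparison. Shares, ratios and sums of tubulin were compared by exact permutation over the 4 libraries. Sequences were read from GENCODE M21 transcripts with Python 3.11.15 and biopython 1.88, and windows were searched in 141767 transcripts. The members and gene lists were chosen with earlier results of these data known. The genes named are the 10 members, the other tubulins with reads, and from each list the genes called and the most abundant 2 by mean log2 CPM; Cbfb, the markers, Stk16, Ttc5 and the genes without reads are named besides. Alternatives were no filter, a minimum of 5 CPM, median centring, quantile normalization, ribosomal RNA genes (Rn45s, Rn18s) out of the totals, a prior count of 0.5, no trend, voom, a block for the replicate number, leaving out each library in turn, and other denominators for shares. Some sequences and 1 marker list are not reported here.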

Additional observations from a re-analysis of the deposited data

How the results depend on the processing

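Over the 14 alternatives, Tuba1a kept its direction (log2 fold change 0.55 to 0.77) and stayed past the threshold in 10 of them, Tubb3 in 7 and Tubb5 in 7, by limma adjusted p. The exceptions were these. With no filter on low values Tuba1a (0.74, adjusted p = 0.156), Tubb3 (−1.06, adjusted p = 0.728) and Tubb5 (0.26, adjusted p = 1) were not called, nor were they without the mean-variance trend (adjusted p = 0.144, 0.299 and 0.465). Quantile normalization left Tubb3 at −1.12 (adjusted p = 0.190). Leaving out each library in turn gave 0.71 to 0.77 for Tuba1a, −1.35 to −0.77 for Tubb3 and 0.23 to 0.29 for Tubb5, with 0 to 1 members, 0 to 1 partner genes and 0 to 201 genes of the whole table called.

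Of all tested genes, 345 were called as reported, 55 with no filter, 83 with quantile normalization, 0 without the trend (1461 at an unadjusted p under 0.05) and 454 with voom. No tubulin member was called with no filter or without the trend (0 in each). Of the partner genes, 0 were called with no filter and without the trend, 5 with a minimum of 5 CPM, and 1 with median centring, quantile normalization, the ribosomal RNA genes left out or a prior count of 0.5. With the replicate block, 535 genes of the table, 3 members and 5 partner genes were called. The deviations of libraries that share a number had a correlation of −0.0042 over all tested genes. Taken over genes of every level alike, this cannot exclude a shared batch. The numbers were not taken as pairs in the reported fit.

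An alternative chosen after seeing the data scaled each library to its summed tubulin CPM, which moved the median of all genes to −0.15. Tuba1a was then 0.55 (limma adjusted p = 4.16e-07), Tubb5 0.072 (0.324), Tubb3 −1.25 (0.0027) and Tubb2a −0.42 (0.0434). This scaling lowers every log2 fold change by the 0.19 by which the tubulin sums differed. Tuba1b, Tuba1c, Tuba4a and Tubb4b, with rises smaller than that, therefore had to turn negative. Shares within alpha or within beta tubulin differed by 3.08 points for Tuba1a, −0.86 for Tuba1b, −1.92 for Tuba1c and −0.26 for Tubb3. The reads of Tubb3 limit its precision, and groups of 2 libraries allow no test for a library that stands apart.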

Other observations

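Of the 8 fibroblast markers 5 were tested and 0 were called by limma (1 higher and 1 lower at an unadjusted p under 0.05); 3 had log2 fold changes above 0 and 2 below. Pdgfra, a receptor of mesenchymal cells, had 121 and 91 reads in the sgNT libraries and 169 and 152 in the sgCbfb libraries (log2 fold change 0.53, limma adjusted p = 0.0515), and Vim had 8078 and 8437 against 8669 and 6737 (log2 fold change −0.18, limma adjusted p = 0.0538). Neither was past the threshold with limma, while voom on the recovered reads called 1 of the list higher and 1 lower, these same genes. The log2 fold changes of Col1a1, Pdgfrb and Dcn were 0.41, 0.82 and −0.17. Col1a2 had 0 to 2 reads, and Lum and Thy1 had 0 in every library.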
